A study of Mus musculus with 8 samples.

Results

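The comparison described here set mouse fibroblasts kept under cardiac reprogramming with diclofenac plus prostaglandin E2 (PGE2) against the vehicle culture of the same cells. It was chosen by the sample labels, with no use of measured values, and took 2 of the 8 arrays of the study, 1 on each side. All 22206 transcript clusters of the array (a cluster is the set of probes for 1 transcript unit) were compared. The question was which genes did not come back to the vehicle level when PGE2 was added beside diclofenac, and which went past it.

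All cultures were postnatal tail-tip fibroblasts (TTFs) that had been given retroviruses for the cardiac transcription factors Gata4, Hand2, Mef2c and Tbx5, a mixture abbreviated GHMT. Compounds were present from the time of infection. The medium was first exchanged after 24 h and then every 3 days. The first set of TTFs gave 4 arrays, namely GHMT without a labelled compound (the vehicle culture; DMSO is among the additions the protocol lists), GHMT with diclofenac, GHMT with an EP4 antagonist and GHMT with diclofenac plus PGE2. Of the second set, the GHMT array and the EP4 antagonist array are used below, beside a TGFb inhibitor array and a Wnt inhibitor array that enter only a fit over all arrays. The sources used here give no dose, day of harvest, mouse strain or name of the EP4 antagonist, and untransduced fibroblasts were not analysed here. Each group of a set was 1 culture on 1 array, so a difference has no replicate check, no p-value is given for it, and it compares these arrays rather than the conditions.

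Cyclooxygenases turn arachidonic acid into the precursor of the prostanoids, and diclofenac inhibits them. PGE2 acts on receptors named EP1 to EP4, of which EP2 and EP4 couple to adenylyl cyclase and raise cyclic AMP; protein kinase A then activates the transcription factor CREB, which binds cyclic AMP response elements. In fibroblasts this route is known for early response genes of the Nr4a family, for phosphodiesterases that degrade cyclic AMP again, and for restraint of matrix production. Adding PGE2 beside diclofenac supplies the product that the blocked enzymes would have made.

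Values are log2 levels, so a difference of 1 is 2-fold. Each array holds 23 background probe sets, and their 95th percentile served as its background level. This lay between 5.73 (GHMT) and 5.99 (diclofenac) in set 1 and was 5.80 with diclofenac plus PGE2, and 10535 clusters exceeded it in at least 1 set 1 array. Array medians were 5.28 and 5.29 in set 1, and arrays correlated at 0.986 to 0.995 within and 0.974 to 0.984 between the sets. The labelled cell type was checked against its genes: 25 of 31 fibroblast identity genes were above background, Col1a1 at 17.38 in GHMT and 16.71 in diclofenac plus PGE2. Markers of several other cell types were mostly at background: 2 of 14 endothelial, 1 of 17 keratinocyte, 5 of 17 neural and 2 of 19 leukocyte markers exceeded it in set 1. Also above it were 3 of 14 adipocyte, 7 of 17 cartilage and bone and 9 of 28 skeletal muscle markers. Smooth muscle and myofibroblast markers were mostly above background, 15 of 17. The mean level of the leukocyte list was 4.34 in GHMT and 4.30 in diclofenac plus PGE2. In whole cultures, fewer cells of a type and less RNA per cell cannot be told apart. The transduced factors above background were less than 2-fold apart, each somewhat higher with diclofenac plus PGE2. Mef2c was at 19.09 in GHMT and 19.27 in diclofenac plus PGE2 (0.18), Tbx5 at 14.71 and 15.16 (0.45), and Hand2 at 12.25 and 12.64 (0.39). Gata4 read at background, 4.33 and 4.44, and it is unknown here if the probes see the viral transcript.

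Diclofenac plus PGE2 and GHMT were at least 2-fold apart in 403 clusters, 1.81% of those measured, of which 198 were higher (0.892%) and 205 lower (0.923%) with the compounds. The higher of the 2 arrays was above background in 319 of them (1.44%), 169 higher (0.761%) and 150 lower (0.675%). The number 403 is close to the 402 clusters (1.81%) that separated diclofenac alone from the same GHMT array, so nearly the same number of clusters differed from the vehicle with and without PGE2. A reference for the spread of such single-array differences came from the EP4 antagonist, which had been set against GHMT in both TTF sets. The difference between its 2 contrasts, divided by the square root of 2, had an SD over clusters of 0.37 and reached 2-fold for 1.48% of clusters. This reference also holds any difference between the sets in the response to the antagonist, whereas the comparison lies within set 1. Within set 1, diclofenac minus the EP4 antagonist had an SD of 0.31. The differences of diclofenac plus PGE2 from GHMT had an SD of 0.38. The distribution as a whole was therefore about as wide as the reference from the 2 sets, and a single gene near the 2-fold line cannot be told from spread of that size. At the line, Rrm2 and Ube2c were just inside with 1.00 each, and Tbx3 (at background in GHMT) and Bst2 just outside with 0.99 each.

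A limma fit over all 8 arrays, which assumes that the lone diclofenac plus PGE2 array varies like the GHMT and EP4 antagonist arrays, called 0 clusters at an adjusted p under 0.05 with the TTF set as a block (932, or 4.2%, at an unadjusted p under 0.05, where 1110.3 would be expected) and 0 without the block (38 unadjusted, 0.171%). The same fit with the block estimates the vehicle level of set 1 from the GHMT and EP4 antagonist arrays of both sets. Arrays alone in their group add nothing to that level. The fit thus rests on the same arrays as the spread reference above. By its estimate 251 clusters were 2-fold apart (118 higher, 133 lower), and 212 of these were among the 403, all with the same sign. For the other 191 of the 403 the estimate was under 2-fold, with the opposite sign in 1. The fit leaves 1 residual degree of freedom, and a count of 0 from it does not show that no cluster differed.

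**Figure D1:**
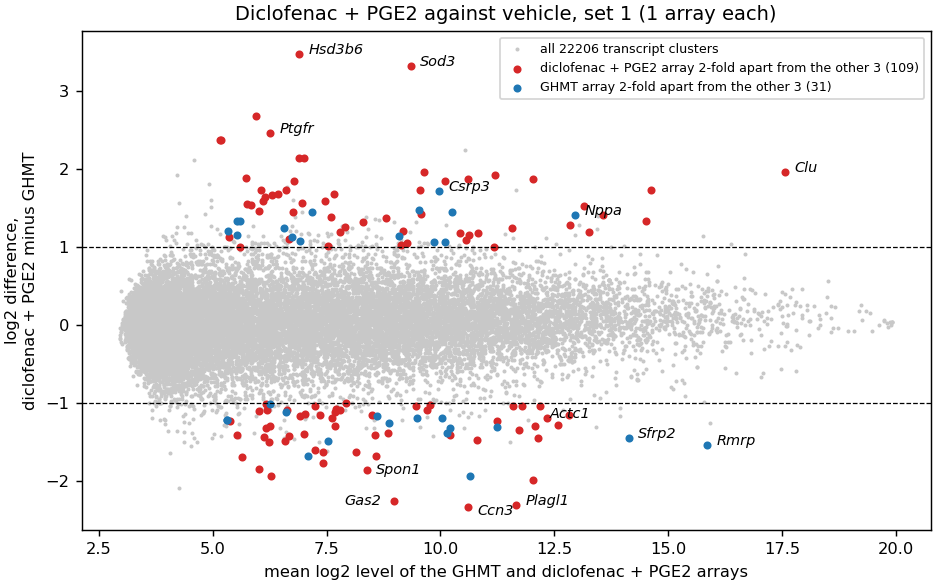
Log2 difference of diclofenac plus PGE2 minus GHMT (vertical axis) against the mean log2 level of these 2 arrays (horizontal axis), 1 grey point per transcript cluster, dashed lines at 2-fold. Red points are the 109 clusters above background in which the diclofenac plus PGE2 array stood at least 2-fold apart from all other set 1 arrays, and blue points the 31 in which the GHMT array did; Hsd3b6 (3.47, with GHMT at background) and Sod3 (3.31) lie highest and Ccn3 (-2.34) and Plagl1 (-2.31) lowest among the labelled genes.

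The 4 arrays of set 1 show which of the 2 arrays a difference rests on. In 115 of the 403 clusters (0.518% of all clusters) the diclofenac plus PGE2 array lay at least 2-fold above or below each of GHMT, diclofenac and the EP4 antagonist, 60 above and 55 below. In 39 (0.176%) it was the GHMT array that lay 2-fold apart from the other 3, 24 above and 15 below. The remaining 249 fell in neither class. For comparison, the diclofenac array stood apart in 10 clusters (0.045%) and the EP4 antagonist array in 17 (0.0766%). With the higher array of the comparison above background, diclofenac plus PGE2 was apart in 109 (0.491%) and GHMT in 31 (0.14%). By this count diclofenac plus PGE2 stood apart most often. Diclofenac and the EP4 antagonist were the most alike pair of set 1 (r = 0.995), so each could keep the other from standing apart. By correlation with GHMT, diclofenac plus PGE2, diclofenac and the EP4 antagonist were equal (0.993 each). In 169 of the 403 clusters (92 higher and 77 lower with PGE2) diclofenac alone differed from GHMT by under 0.5. That count includes clusters at background. The share of all clusters with so small a diclofenac difference was not computed, so the count is not read as a result about the 403.

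Hsd3b6, a 3-beta-hydroxysteroid dehydrogenase of steroid hormone synthesis, was at 5.17 in GHMT, 4.79 in diclofenac, 4.45 in the EP4 antagonist and 8.64 in diclofenac plus PGE2. The first 3 were at background, so it was at least 7.52-fold higher with diclofenac plus PGE2 than in GHMT, and only that culture of set 1 showed a measured level. Sod3, the extracellular superoxide dismutase, was at 7.69, 7.90, 7.28 and 11.00 in the same order, 9.92-fold higher than GHMT and well above background in all 4 arrays, the largest difference measured on both sides. Clu, the secreted chaperone clusterin, was at 16.60, 16.92, 17.03 and 18.55. Its 3.86-fold difference stood at the top of the array's range. Mgst1, a membrane glutathione transferase, was at 11.10, 10.62, 10.50 and 12.97, a 3.66-fold difference from GHMT. In each of these 4 genes the 3 arrays without added PGE2 lay close together and the array with it lay alone.

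Several surface and secreted proteins had the same layout. Cd55, a membrane protein that blocks complement, was at 9.18 in GHMT, 8.83 in diclofenac, 8.71 in the EP4 antagonist and 11.02 in diclofenac plus PGE2 (3.58-fold). Its near copy Cd55b was at 10.23, 9.94, 9.32 and 12.15 (3.78-fold), and because probes of these paralogs may share targets, they are not separate evidence. Mmp13, an interstitial collagenase, was at 8.67, 9.53, 9.08 and 10.62 (3.86-fold). Cck, the peptide hormone cholecystokinin, was at 5.93, 6.25, 6.41 and 8.07 (4.41-fold). Cd24a, a mucin-like surface protein, was at 9.41, 10.38, 10.71 and 11.65 (4.72-fold), and here diclofenac and the EP4 antagonist were part of the way up. Gpr50, an orphan receptor related to the melatonin receptors, and Ifi27l2a, an interferon-inducible membrane protein, were at background in the other 3 arrays and were at least 1.54-fold and at least 1.56-fold higher than GHMT. Erv3, an endogenous retroviral sequence whose probes may match related copies, was 3.63-fold higher, and Smim3, a small membrane protein, 3.58-fold higher.

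**Figure D2:**
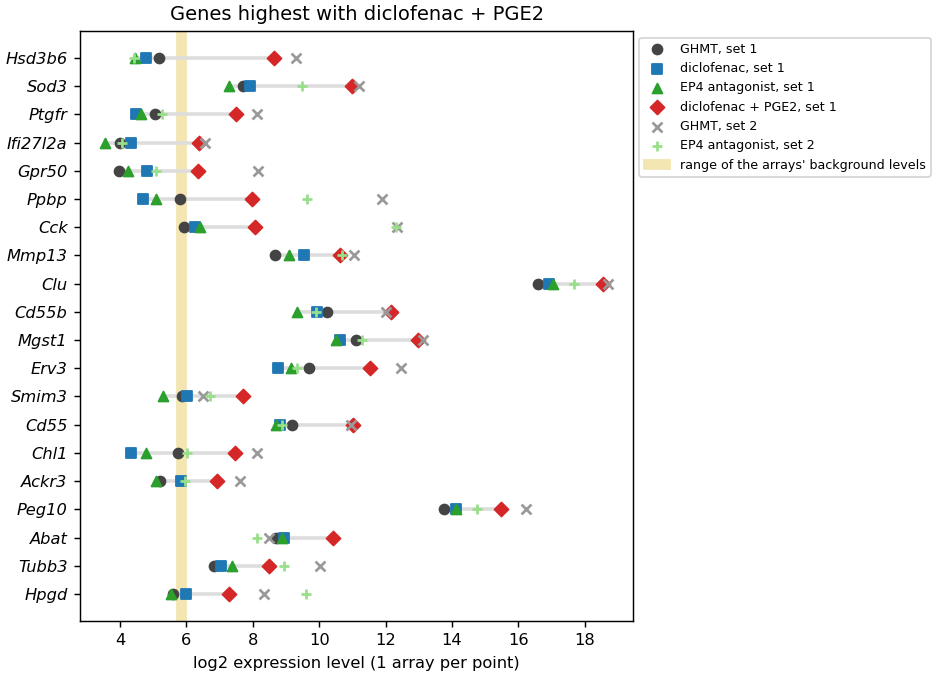
Log2 level in 6 arrays (horizontal axis, 1 array per point) of the 20 named genes with the largest differences from GHMT among those in which diclofenac plus PGE2 stood at least 2-fold above the other set 1 arrays; grey lines span the set 1 arrays and the band is the range of the arrays' background levels. The red diamonds lie to the right of the other set 1 points in every gene, at 8.64 for Hsd3b6 and 11.00 for Sod3. Ackr3, Peg10 and Abat are shown by this ranking and are not described further.

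Genes of the prostanoid pathway were examined by role. Among the synthetic enzymes, Ptgs2, the inducible cyclooxygenase that diclofenac inhibits, was at 9.72 in GHMT, 9.47 in diclofenac, 9.81 in the EP4 antagonist and 10.03 in diclofenac plus PGE2, a difference of 0.31 from GHMT. Ptges, the inducible PGE2 synthase, was at 7.45, 7.18, 6.81 and 8.36, a difference of 0.91. Ptges3, the cytosolic PGE2 synthase and co-chaperone, differed by 0.77. Hpgd, the dehydrogenase that inactivates prostaglandins, was at 5.60, 5.99, 5.53 and 7.28, with only the last clearly above background, and was at least 2.93-fold higher. Of 11 synthesis and breakdown genes above background, 7 differences were positive and 4 negative, with Hpgd alone past 2-fold, where 1.61% of all clusters above background were 2-fold higher.

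Among the receptors, only Ptgfr and Ptger4 were above background in set 1. Ptgfr encodes the receptor for prostaglandin F2alpha, which couples to calcium release. It was at 5.04 in GHMT, 4.48 in diclofenac, 4.62 in the EP4 antagonist and 7.49 in diclofenac plus PGE2, at least 3.39-fold higher than GHMT. Ptger4, the EP4 receptor itself, was at 6.65, 6.50, 6.34 and 7.60, a difference of 0.95. The clusters for the other EP receptors, Ptger1, Ptger2 and Ptger3, were at background in both arrays of the comparison. Both measured receptors were highest of set 1 in the culture that had been given PGE2.

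The downstream list of cyclic AMP and CREB targets had 32 of 41 members above background, with a median difference of 0.25 against 0.04 for all 10535 such clusters. Of the 32, 21 were positive and 11 negative, beside 5657 and 4770 of all; 4 were 2-fold higher and 2 were 2-fold lower, where 1.61% and 1.42% of all were. Those higher were Nr4a3, Pde7b, Pde10a and Nr4a1. Nr4a3 was at 5.48 in GHMT, 4.92 in diclofenac, 5.73 in the EP4 antagonist and 7.14 in diclofenac plus PGE2, at least 2.66-fold higher than GHMT. Nr4a1 was at 7.03, 6.86, 6.45 and 8.04 (1.01), and Nr4a2, the third of these orphan nuclear receptors, at 7.53, 7.24, 7.08 and 8.49 (0.96). In all 3 the diclofenac plus PGE2 array was the highest of set 1, while diclofenac alone differed from GHMT by -0.17 for Nr4a1 and -0.29 for Nr4a2. Nr4a3 was at background in the other 3 arrays, which therefore have no order.

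The proximal promoters of the Nr4a genes are printed because these early response genes were highest with PGE2 and are classical cyclic AMP targets. The sequences are the 250 bases before the start of the RefSeq transcript in mouse build GRCm38.p6, read 5′ to 3′ along the gene, and capitals mark the half-site of the cyclic AMP response element, TGACG, or its complement on the other strand. Nr4a1 lies at chr15:101266596-101266845 on the plus strand, Nr4a2 at chr2:57124004-57124253 on the minus strand and Nr4a3 at chr4:48045055-48045304 on the plus strand.
Nr4a1: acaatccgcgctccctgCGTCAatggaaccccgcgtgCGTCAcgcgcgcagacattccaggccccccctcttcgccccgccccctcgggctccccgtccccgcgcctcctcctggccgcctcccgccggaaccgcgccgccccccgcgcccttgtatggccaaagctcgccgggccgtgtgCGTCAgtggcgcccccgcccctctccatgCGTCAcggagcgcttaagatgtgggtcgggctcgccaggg
Nr4a2: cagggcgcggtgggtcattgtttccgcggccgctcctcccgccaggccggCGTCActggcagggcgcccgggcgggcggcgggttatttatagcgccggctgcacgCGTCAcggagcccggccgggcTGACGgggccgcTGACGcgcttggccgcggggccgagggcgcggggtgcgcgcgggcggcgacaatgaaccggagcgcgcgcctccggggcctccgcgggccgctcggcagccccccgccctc
Nr4a3: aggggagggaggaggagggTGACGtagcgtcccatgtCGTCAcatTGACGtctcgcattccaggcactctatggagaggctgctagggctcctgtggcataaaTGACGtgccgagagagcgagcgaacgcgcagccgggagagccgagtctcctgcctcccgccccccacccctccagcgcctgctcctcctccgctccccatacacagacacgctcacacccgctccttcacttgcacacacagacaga
Each holds 4 half-sites, 40 to 233 bases upstream in Nr4a1, 111 to 200 in Nr4a2 and 147 to 231 in Nr4a3. None holds the full palindrome. The windows of other genes that were higher with PGE2 hold fewer: Hsd3b6, Ptgfr, Pde7b and both Pde10a starts have no half-site, and of 4 Pde4b starts 1 has a single one. Of 32851 promoters of the same length, 17.8% hold at least 1 half-site on either strand and 45 (0.137%) hold at least 4. A match describes these letters and not binding.

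Phosphodiesterases, which end the cyclic AMP signal, differed in set 1 in how they reached their level. Pde4b was at 8.56 in GHMT, 6.12 in diclofenac, 5.33 in the EP4 antagonist and 9.52 in diclofenac plus PGE2, so it was lower than GHMT with diclofenac (-2.44), at background with the EP4 antagonist, and higher than GHMT by 0.96 with PGE2. Pde7b was at 7.28, 7.02, 6.89 and 8.53 and Pde10a at 8.57, 8.24, 7.95 and 9.77. In set 1, Pde7b and Pde10a lay nearer GHMT with the inhibitors than Pde4b did, and above it, by 1.25 and 1.20, with diclofenac plus PGE2. Set 2 did not show this contrast, as each was lower with the EP4 antagonist than in GHMT. The differences there were -3.43 for Pde4b, -2.27 for Pde7b (at background with the antagonist) and -1.67 for Pde10a. On the lower side were the potassium channel gene Kcnk2, at 7.19, 6.70, 6.86 and 5.96, and Akap12, a scaffold of protein kinase A named here after its values were seen, at -1.02 from GHMT.

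Genes with large negative differences had varied roles. Ccn3, a matricellular protein, was at 11.78 in GHMT, 11.45 in diclofenac, 11.52 in the EP4 antagonist and 9.44 in diclofenac plus PGE2, 5.06-fold lower than GHMT. Gas2, a cytoskeletal protein induced at growth arrest, was at 10.12, 9.66, 9.93 and 7.86 (4.79-fold lower). Sema3a, a secreted guidance cue, was at 9.43, 9.12, 9.24 and 7.75 (3.20-fold lower). In these genes the array with PGE2 again lay alone, with the other 3 within 0.46 of each other. Gria1, a glutamate receptor subunit, at 7.26, 7.11, 7.11 and 5.32, and the protease gene Adamts18, at 6.94, 6.91, 6.96 and 5.09, were at background only with diclofenac plus PGE2 and were at least 2.75-fold and at least 2.20-fold lower. Nes, the intermediate filament protein nestin, was at 8.06, 8.54, 8.26 and 6.45 (3.05-fold lower). Also named by their size were Tril (at least 1.61-fold lower), Galnt18 (3.10-fold) and Lnpk (3.07-fold).

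Matrix genes were more often lower than higher. Of 46 matrix glycoproteins and proteoglycans, 41 were above background, with 13 positive and 27 negative differences, a median of -0.29, 2 past 2-fold higher and 7 past 2-fold lower. Among all clusters above background, 5657 were positive, 4770 negative, 1.61% 2-fold higher and 1.42% 2-fold lower. The list's median difference from GHMT was -0.38 with diclofenac and -0.45 with the EP4 antagonist, so the list as a whole was no further from GHMT with PGE2 than without it. Aspn, the small proteoglycan asporin, was at 13.03 in GHMT, 12.06 in diclofenac, 12.58 in the EP4 antagonist and 11.04 in diclofenac plus PGE2, 3.97-fold lower. Fmod, the collagen-binding proteoglycan fibromodulin, was at 12.28, 11.76, 11.63 and 10.77 (2.85-fold lower). Fbln5, an elastic fibre protein, was at 12.86, 12.56, 12.47 and 11.41 (2.73-fold lower). The inhibitors stood on the same side of GHMT in these 3 genes, and the array with PGE2 was further from GHMT, unlike the list's median.

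The collagens held no gene past 2-fold, where 1.61% of all clusters above background were 2-fold higher and 1.42% 2-fold lower. Of the 17 collagens above background, 4 differences were positive and 12 negative with a median of -0.23. The collagen median was -0.15 with diclofenac and -0.34 with the EP4 antagonist. Among all clusters above background, 5657 differences were positive and 4770 negative, with a median of 0.04. Col3a1, a fibrillar collagen, was at 16.03 in GHMT, 14.89 in diclofenac, 15.03 in the EP4 antagonist and 16.07 in diclofenac plus PGE2, so it was back at the vehicle level. Col1a1, at 17.38, 16.51, 16.65 and 16.71, was not, and remained at -0.67. Col11a1, a minor fibrillar collagen, at 9.98, 8.76, 8.92 and 9.02, was also near the level with diclofenac. Of the matrix genes that were lower with diclofenac, Tgfbi, a TGFb-induced adhesion protein, was at 12.14, 10.43, 10.61 and 12.84 and thus above the vehicle with PGE2.

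Growth factors and their receptors had 37 of 46 members above background, 11 positive and 26 negative, with a median of -0.31, beside 5657 positive and 4770 negative of all clusters above background. Of these members 1 was past 2-fold higher and 4 past 2-fold lower, beside 1.61% and 1.42% of all. Pdgfrb, the PDGF receptor of mesenchymal cells, was at 12.54 in GHMT, 12.26 in diclofenac, 11.99 in the EP4 antagonist and 11.32 in diclofenac plus PGE2 (2.33-fold lower). Igfbp5, a binding protein for insulin-like growth factors, was at 14.07, 13.42, 12.95 and 12.76 (2.48-fold lower), and Fgf18 at 7.71, 7.35, 7.35 and 6.31 (2.64-fold lower). Angptl4, a secreted inhibitor of lipoprotein lipase, went the other way, at 6.10, 6.53, 6.21 and 7.30 (2.30-fold higher). Mylk, the kinase that activates smooth muscle myosin, was at 8.97, 8.34, 8.52 and 7.33 (3.12-fold lower), and with Pdgfrb and the integrin Itga8 it made up the 3 of 15 smooth muscle and myofibroblast markers above background that were 2-fold lower, beside 1.42% of all.

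Whether diclofenac's differences were undone was asked of the 402 clusters that diclofenac alone put 2-fold from GHMT. With PGE2 added, 155 lay within 0.5 of GHMT, 164 between 0.5 and 1 away, 69 at least 2-fold away on the same side (not returned; 0.311% of all clusters) and 14 at least 2-fold away on the opposite side (past the vehicle level; 0.063%). Both differences share the GHMT array, so an unusual GHMT value alone would place a cluster among those not returned. The counts are therefore given with the levels of all 4 arrays.

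The 69 clusters not returned were 31 higher and 38 lower, and in 50 (0.225% of all; 29 higher, 21 lower) the higher of the GHMT and diclofenac plus PGE2 arrays was above background. In 68 of the 69 the EP4 antagonist differed from GHMT in the same direction, and in 39 also by 2-fold, so that in those 39 the GHMT array stood apart from all others of set 1. Among the higher ones were muscle genes. Csrp3, the muscle LIM protein of the Z-disc, was at 9.11 in GHMT, 11.56 in diclofenac, 12.06 in the EP4 antagonist and 10.82 in diclofenac plus PGE2, still 3.27-fold above GHMT. Nppa, the atrial natriuretic peptide gene, was at 12.26, 14.08, 13.41 and 13.66 (2.64-fold). Popdc3, a membrane protein of striated muscle that binds cyclic AMP, was at 9.54, 10.81, 10.96 and 10.98 (2.71-fold), as high with PGE2 as with either inhibitor. Lmod2, an actin nucleator of the thin filament, was at background in GHMT alone, at 4.86 against 6.66, 6.31 and 6.19. Outside muscle, Slc13a5, a citrate transporter, was at 8.79, 10.04, 10.29 and 10.26 (2.77-fold), and Spast, the microtubule-severing protein spastin, at 6.47, 7.69, 7.53 and 7.91 (2.71-fold).

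Among the lower ones, Sfrp2, a secreted modulator of Wnt signalling, was at 14.86 in GHMT, 13.02 in diclofenac, 12.75 in the EP4 antagonist and 13.40 in diclofenac plus PGE2 (2.75-fold lower). Mfap4, a microfibril protein, was at 11.63, 10.50, 10.41 and 9.69 (3.84-fold lower), and Slc40a1, the iron exporter ferroportin, at 7.94, 6.67, 6.70 and 6.25 (3.23-fold lower). Cygb, cytoglobin, was at 8.27, 6.73, 6.97 and 6.78 (2.81-fold lower). Rmrp, the RNA of the RNase MRP complex, was at 16.63, 15.13, 15.32 and 15.09 (2.91-fold lower). For these 5 genes the GHMT array was the single high one of set 1. Plagl1, an imprinted zinc finger factor, differed in layout, at 12.82, 11.79, 12.11 and 10.51: diclofenac plus PGE2 was lowest, 1.28 below diclofenac alone.

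Set 2 gave GHMT and EP4 antagonist levels that the choice of these clusters had not used. In the 16 clusters above background in which GHMT of set 1 was apart as the highest array, the EP4 antagonist differed from GHMT in set 2 by a median of -0.24, with 10 of 16 below 0 and 2 at least 2-fold lower. In the 15 in which it was apart as the lowest, the median was 0.25, with 10 of 15 above 0 and 1 at least 2-fold higher. Among all 10422 clusters whose higher array of the comparison was above background, 51.3% were below 0 and 47.4% above. Of these, 2.01% were 2-fold lower and 1.72% 2-fold higher, and the median was -0.02. In the wider not-returned class the set 2 medians were 0.00 over the 29 higher and -0.17 over the 21 lower clusters. Popdc3, for example, was at 12.04 in GHMT and 12.16 with the antagonist in set 2, and Slc13a5 at 13.68 and 13.69. Nppa kept a positive difference, at 15.40 and 16.77.

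The 14 clusters past the vehicle level were 7 below it and 7 above it, all 14 with the EP4 antagonist on diclofenac's side of GHMT. Actc1, cardiac alpha-actin, was at 12.72 in GHMT, 14.37 in diclofenac, 14.36 in the EP4 antagonist and 11.67 in diclofenac plus PGE2, 2.07-fold below the vehicle. Smyd1, a muscle methyltransferase needed for myofibril assembly, was at 7.60, 9.43, 9.34 and 6.45 (2.22-fold below). Lmo7, an adhesion-site protein, was at 13.23, 14.36, 13.99 and 11.94 (2.45-fold below). Each of these 3 muscle or adhesion genes had GHMT between the inhibitors above and diclofenac plus PGE2 below. Spon1, the matrix protein F-spondin, at 9.32, 10.74, 10.82 and 7.46 (3.63-fold below), and the transcriptional regulator Cited1, at 9.27, 11.04, 10.82 and 7.85 (2.68-fold below), had the same order. Rab3b, a vesicle GTPase, was at 7.50, 9.90, 9.46 and 6.33 (2.25-fold below), and Myh8, the perinatal skeletal myosin, was at 5.99, 7.10, 6.38 and 4.75, at background with PGE2 and at least 1.14-fold below.

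On the upper side, Ppbp, a CXC chemokine, was at 5.82 in GHMT, 4.69 in diclofenac, 5.09 in the EP4 antagonist and 7.96 in diclofenac plus PGE2 (4.41-fold above the vehicle). Both inhibitor arrays were at background, and GHMT was barely above it. Mcpt8, a serine protease gene known from basophils, was at 6.19, 4.70, 4.42 and 7.75 (2.95-fold above), also with both inhibitor arrays at background. Emb, the cell adhesion protein embigin, was at 8.87, 7.42, 7.25 and 10.29 (2.68-fold above). In Emb the inhibitors were lowest, GHMT between and PGE2 highest, all above background. In Ppbp and Mcpt8 the step from the inhibitors to GHMT was not measured on both sides. Chl1, a neural adhesion molecule, had a difference of 1.73, with GHMT (5.74) barely above background and the inhibitors (4.34 and 4.79) at it, Prg4, the lubricant proteoglycan of joints, 1.17, and Slc6a17, a vesicular amino acid transporter that the naming rule left out for its rank, 1.15. The remaining cluster has no gene symbol.

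**Figure D3:**
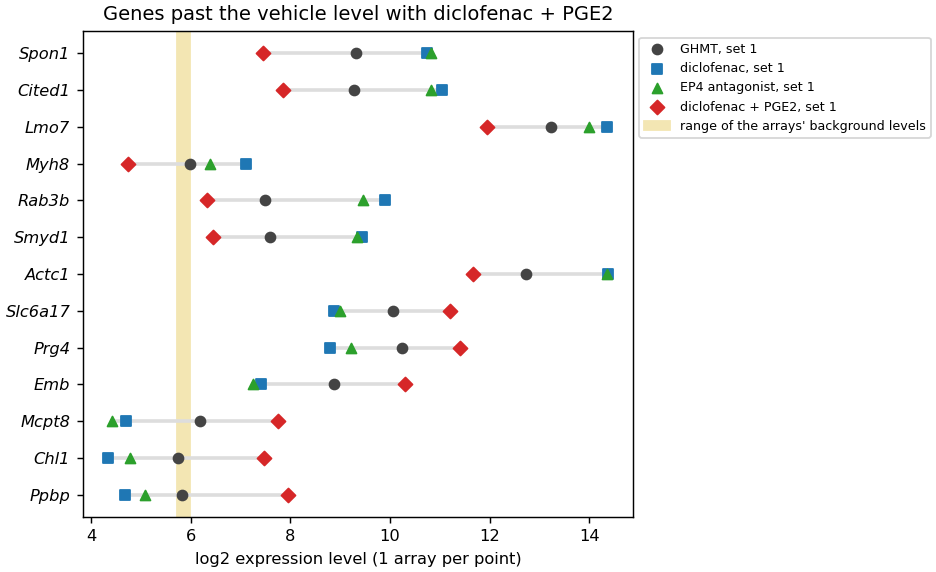
Log2 level in the 4 set 1 arrays (horizontal axis, 1 array per point) of the 13 named genes past the vehicle level, ordered by the difference of diclofenac plus PGE2 from GHMT; grey lines span the arrays and the band is the range of background levels of set 1. In every gene the grey GHMT circle lies between the inhibitors on one side and the red diamond on the other, for Actc1 at 12.72 between 14.37 and 11.67; for Ppbp, Mcpt8 and Chl1 both inhibitor points are at background.

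Set 2 again gave values outside the choice. In all 7 clusters past the vehicle on the lower side the EP4 antagonist was above GHMT in set 2, by a median of 1.82, and by 2-fold in 6. In all 7 on the upper side it was below GHMT, by a median of -1.63, and by 2-fold in 6. Among all 10422 clusters whose higher arm of the comparison was above background, 47.4% were above 0 and 51.3% below, 1.72% were 2-fold higher and 2.01% 2-fold lower. Actc1 was at 11.64 in GHMT and 14.39 with the antagonist in set 2, Rab3b at 6.96 and 10.91, and Mcpt8 at 12.26 and 8.70.

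The same was seen in the larger class of clusters in which diclofenac plus PGE2 stood apart from all other set 1 arrays. This class includes the 14 clusters past the vehicle level, so the counts overlap. Of the 55 such clusters above background on the high side, 50 (90.9%) were below 0 for EP4 antagonist minus GHMT in set 2, 32 (58.2%) were at least 2-fold lower, and the median was -1.25. Hsd3b6 was at 9.31 in GHMT and 4.42 with the antagonist, Ptgfr at 8.12 and 5.26, and Sod3 at 11.19 and 9.48. Of the 54 on the low side, 47 (87.0%) were above 0, 20 (37.0%) at least 2-fold higher, and the median was 0.74. Gas2 was at 7.13 and 8.85, and Nes at 8.93 and 10.68. Hpgd was 1 of the 5 on the high side with the opposite sign, at 8.35 in GHMT and 9.60 with the antagonist, and Cck hardly differed, at 12.35 and 12.30. On the low side 7 had the opposite sign, of which Galnt16, named after its values were seen, was 2-fold lower (-1.21). The set 1 EP4 antagonist array had been used to choose these clusters, and the set 2 arrays had not.

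**Figure D4:**
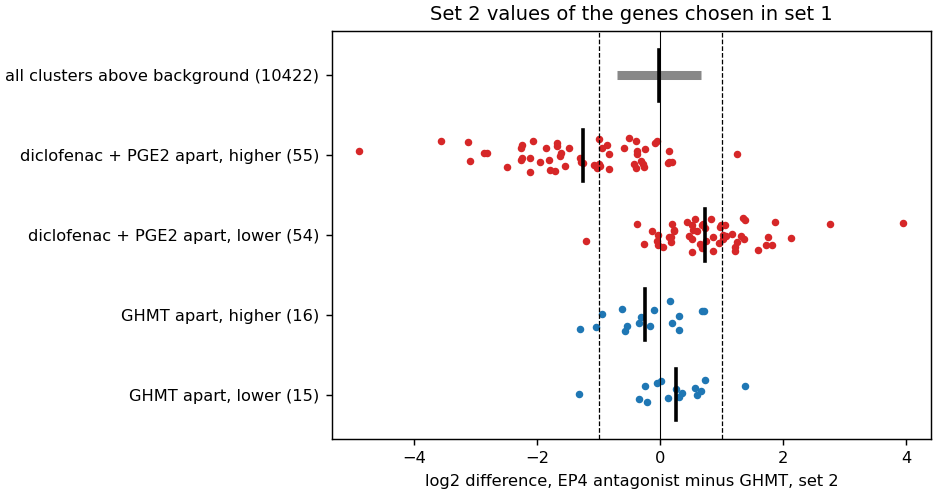
Log2 difference of the EP4 antagonist minus GHMT in set 2 (horizontal axis) for clusters chosen in set 1 and above background; each point is 1 cluster, black ticks are medians, and the grey bar spans the 5th to 95th percentile of all 10422 clusters. The medians are -1.25 and 0.74 where diclofenac plus PGE2 was apart (red) and -0.24 and 0.25 where GHMT was apart (blue).

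The GHMT level itself differed between the TTF sets in these genes. In set 2 the GHMT array was at least 2-fold above that of set 1 in 43 of the 55 clusters on the high side, with a median difference of 2.09. It was at least 2-fold below it in 36 of the 54 on the low side, with a median of -1.38. Among all 10422 clusters whose higher array of the comparison was above background, 1218 were 2-fold above and 581 2-fold below, with a median of 0.20. Over all 22206 clusters 13.7% were 2-fold apart in either direction. These values share the set 1 GHMT array with the choice of the clusters. The EP4 antagonist arrays of the sets, of which that of set 1 took part in the choice, differed in the same direction in 44 of 55 and 42 of 54, beside 60.6% higher and 38.8% lower in set 2 among all clusters above background. Sod3 may serve as an example, at 7.69 in GHMT of set 1, 11.00 in diclofenac plus PGE2 of set 1 and 11.19 in GHMT of set 2. Clu was at 16.60, 18.55 and 18.69 in the same arrays, and Ccn3 at 11.78, 9.44 and 7.90. Ptgs2 was at 9.72, 10.03 and 12.86. The part of Ptgs2 in this difference between the sets was not tested.

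The heart muscle genes were the ones the study's reprogramming is meant to switch on, and they split. Of 39 sarcomere genes 26 were above background. Their median difference from GHMT was 1.34 with diclofenac and 0.33 with diclofenac plus PGE2, with 16 and 4 genes 2-fold higher and, with PGE2, 1 gene 2-fold lower. For comparison, 1.95% of all clusters above background were 2-fold higher with diclofenac, and 1.61% higher and 1.42% lower with diclofenac plus PGE2. Myh6, the alpha-myosin heavy chain, was at 6.89 in GHMT, 10.22 in diclofenac, 8.57 in the EP4 antagonist and 5.99 in diclofenac plus PGE2, and Myl7, the atrial regulatory light chain, at 11.42, 13.59, 13.30 and 10.48. These genes stood at -0.90 and -0.94 from the vehicle, on the same side as Actc1 and Smyd1. Ttn, the titin gene, was at 8.52, 10.52, 9.71 and 9.51, and Myl4, the atrial essential light chain, at 11.63, 13.49, 13.21 and 12.20. They stayed above the vehicle by 0.99 and 0.57.

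Some other sarcomere genes differed little between diclofenac with and without PGE2. Tnnt2, cardiac troponin T, was at 17.50 in GHMT, 18.07 in diclofenac, 18.07 in the EP4 antagonist and 17.96 in diclofenac plus PGE2. Cryab, a small heat shock protein of the Z-disc, was at 15.20, 15.88, 15.95 and 16.33, highest of set 1 with PGE2 and 2.19-fold above the vehicle. Synpo2l, a Z-disc protein, was at 9.32, 10.69, 10.66 and 10.38 (2.08-fold above). The sarcomere list therefore held genes below, at and above the vehicle level in the same culture.

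Genes of calcium handling and ion channels held no gene 2-fold higher. Of 21 above background, 6 differences were positive and 15 negative, with a median of -0.29, beside 5657 and 4770 and a median of 0.04 over all clusters above background. The 1 gene that was 2-fold lower, where 1.42% of all were, was Trdn, triadin of the calcium release complex, at 7.18 in GHMT, 7.35 in diclofenac, 7.09 in the EP4 antagonist and 6.08 in diclofenac plus PGE2. Ryr2, the calcium release channel, was at 10.58, 11.84, 11.13 and 9.94, and Slc8a1, the sodium-calcium exchanger, at 6.74, 7.08, 7.68 and 5.89. Among 13 cardiac transcription factors and hormones above background the median was 0.28, with Nppa higher and Smyd1 lower by 2-fold, beside 1.61% and 1.42% of all. Tbx2 and Tbx3 encode repressors of the working myocardium programme. Tbx2 was 0.97 above the vehicle, and Tbx3, at background in GHMT, was at least 1.27-fold higher.

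**Figure D5:**
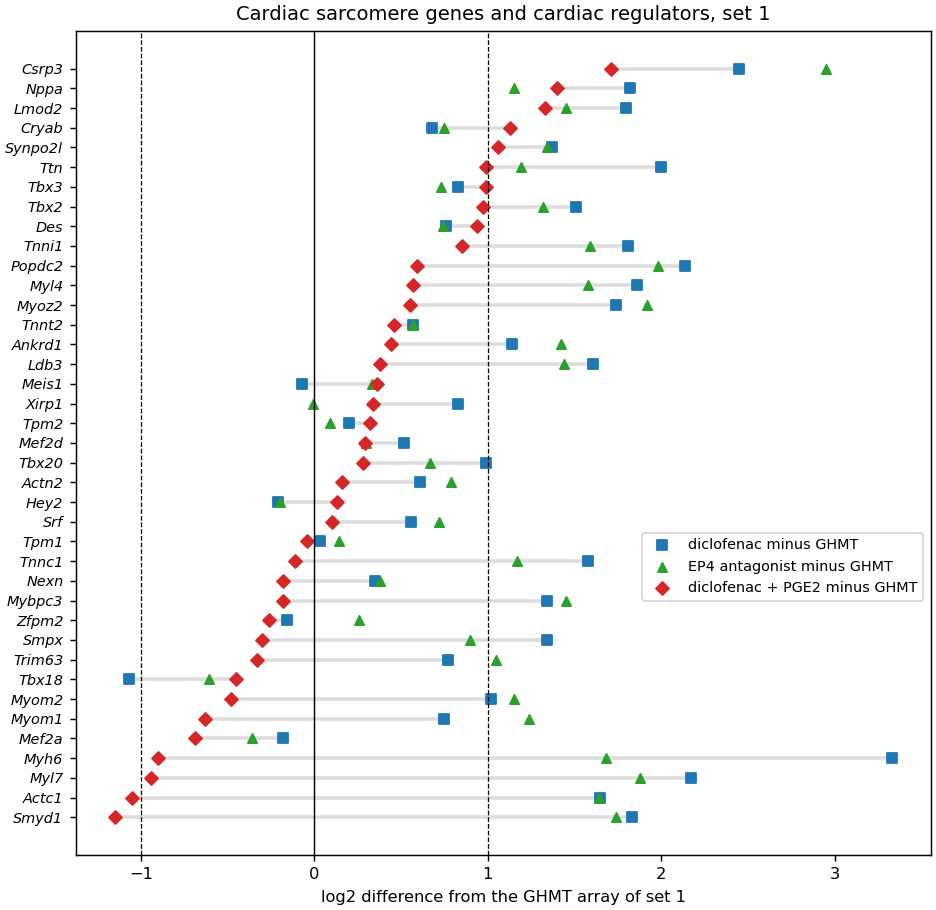
Log2 difference from the GHMT array of set 1 (horizontal axis) for the measured sarcomere genes and cardiac regulators in diclofenac (squares), the EP4 antagonist (triangles) and diclofenac plus PGE2 (diamonds), ordered by the last; all share that GHMT array, grey lines join diclofenac with and without PGE2, and dashed lines mark 2-fold. Diamonds run from -1.15 (Smyd1) to 1.71 (Csrp3), while diclofenac alone reaches 3.33 (Myh6).

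The promoters of Actc1 and Myl7 are shown as muscle genes below the vehicle level, with capitals marking the CArG box, the binding motif of serum response factor. They are the 250 bases before the RefSeq start in GRCm38.p6, at chr2:114052876-114053125 and chr11:5898783-5899032, both on the minus strand and read along the gene.
Actc1: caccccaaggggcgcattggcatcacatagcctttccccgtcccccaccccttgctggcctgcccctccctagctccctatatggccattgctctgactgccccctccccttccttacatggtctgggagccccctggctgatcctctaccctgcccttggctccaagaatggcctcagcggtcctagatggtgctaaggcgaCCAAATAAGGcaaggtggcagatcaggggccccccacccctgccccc
Myl7: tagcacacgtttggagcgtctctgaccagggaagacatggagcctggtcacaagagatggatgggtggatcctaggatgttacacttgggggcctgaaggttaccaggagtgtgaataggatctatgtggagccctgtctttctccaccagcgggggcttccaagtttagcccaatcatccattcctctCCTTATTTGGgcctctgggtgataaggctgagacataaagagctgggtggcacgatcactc
Each holds 1 CArG box, 47 bases upstream in Actc1 and 61 in Myl7, and 1.47% of the 32851 promoters hold one on either strand. The windows of Smyd1 and Myh6, which were also below the vehicle, and of Nppa and Csrp3, which were above it, hold none. In the 50 promoters matched to the named genes in which diclofenac plus PGE2 was apart on the low side, 4 (8.0%) hold a CArG box and 9 (18.0%) a cyclic AMP half-site. In the 50 matched on the high side, 1 (2.0%) holds a CArG box and 14 (28.0%) a half-site. Of all 32851 promoters, 17.8% hold a half-site. The full palindrome is in 3 (6.0%) on the high side, in 1 (2.0%) on the low side and in 1.55% of all. Matching found 38 of 52 and 39 of 49 genes, some with several starts.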

How the data were processed

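Total RNA of 8 cultures was hybridised to Clariom S Mouse arrays, 1 sample per array. The deposited values are log2 levels that the authors normalized by SST-RMA (single space transformation with robust multichip averaging) in Affymetrix Expression Console 1.4, per the submitters' design text and processing notes. The sources used here do not say whether both TTF sets were normalized together, nor the genome build of the design or any filter.

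Of 28846 features, 6640 were controls and 22206 transcript clusters, of which 19572 had 1 gene symbol from the platform annotation, 2634 are unnamed here and 55 symbols stood on more than 1 cluster. Differences of single arrays were taken within set 1 and counted at 2-fold. A level at or under its array's background gives a fold only as a bound ("at least"), against that background level, and no fold where the bound is under 1. The number of arrays limits the precision. Set numbers were treated as pairing because the titles attach them to the fibroblasts and because, over clusters, what set GHMT of a set off from the GHMT mean correlated with the same quantity for the EP4 antagonist (r = 0.724). The labels do not say that sets were separate isolations. limma 3.58.1 in R 4.3.3 (lmFit and eBayes, two-sided, Benjamini-Hochberg adjusted) was used for the fit over 8 arrays. It was tested on simulated data, where it recovered the simulated differences but called them in only some of the draws.

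The 33 gene lists (877 of 938 entries matched), the classes and the members were chosen with earlier results of these data known. Named genes are those with a known symbol and the higher array above background: the 15 largest differences each way, the 10 largest not returned, the 10 largest past the vehicle, the 8 furthest apart each way, up to 4 per list ranked by size of difference, and preset pathway and heart genes. Alternatives were other fold thresholds, quantile normalization, median centring, filters on low values and the limma fits. Promoters are from RefSeq.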

Additional observations from a re-analysis of the deposited data

How the results depend on the processing

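With 1 array on each side, no array could be left out. At 1.5-fold the counts were 2323 clusters apart, 712 not returned, 77 past the vehicle (23 above, 54 below), 502 with diclofenac plus PGE2 apart and 399 with GHMT apart. At 3-fold they were 53 (35 higher, 18 lower), 2, 0, 22 and 1. Among clusters above background in all 4 set 1 arrays they were 232, 39, 10, 74 and 23. The fits with the TTF set as a replicate block and with no replicate block called 0 and 0 clusters, and the block estimate, chosen after seeing the data, put 251 at 2-fold. By that estimate 34 of the 173 named genes moved by over 0.37 and 139 did not. Quantile normalization gave 513, 99, 17, 134 and 58, and median centring 403, 70, 14, 115 and 41. Neither moved any of the 173 named genes by over 0.37. Filtering moved 2 of 33 list medians by over that amount. Near background, 162 of the 403 clusters had their lower array at background, where a fold is a lower bound, and 84 of these had both, where none is given.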

Other observations

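Interferon response genes were in median higher in both cultures with diclofenac, and lower in that with the EP4 antagonist, than in GHMT of set 1. Of 46 genes, 27 were above background, 21 positive and 6 negative for diclofenac plus PGE2 minus GHMT, with a median of 0.28. The list's median was 0.40 for diclofenac and -0.56 for the EP4 antagonist against the same GHMT array. In set 2 the list's median for the EP4 antagonist minus GHMT was -0.02, so the lower median with the antagonist was seen in set 1 only. Over all clusters above background, 5657 differences were positive and 4770 negative for diclofenac plus PGE2, with a median of 0.04. The overall medians were 0.02 for diclofenac and -0.01 for the EP4 antagonist. Xaf1, a pro-apoptotic interferon target, was at 7.01 in GHMT, 8.31 in diclofenac, 6.14 in the EP4 antagonist and 8.17 in diclofenac plus PGE2. Ifit1, an RNA-binding effector, was at 6.08, 7.19, 4.60 and 7.00, and Bst2, the virion tether tetherin, at 6.04, 7.07, 5.74 and 7.03. Both cultures with diclofenac were thus higher than the EP4 antagonist culture in these 3 genes, with or without PGE2. Ifit2 did not share the layout, at 8.78, 9.13, 8.38 and 7.83. For the EP4 antagonist minus GHMT in set 2, Xaf1 was at -0.41, Bst2 at -0.71 and Ifit2 at 1.22, while Ifit1 was at background in both arrays.

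Proliferation genes were in median near the vehicle level, with some members higher. Of 28 mitosis and G2/M genes above background, 18 differences were positive and 10 negative, with a median of 0.15, against a median of -0.24 for diclofenac alone. Beside them, 5657 of all clusters above background were positive and 4770 negative, with a median of 0.04. The largest differences of this list were 1.00 (Ube2c), 0.73 (Top2a), 0.72 (Ttk) and 0.63 (Ccna2), and its lowest was -0.45. Of its members 1 was 2-fold higher and 0 were 2-fold lower, beside 1.61% and 1.42% of all. Of 24 DNA replication and S phase genes above background, 13 differences were positive and 10 negative, with a median of 0.01. Of these, Rrm2 (1.00) was the 1 gene 2-fold higher. Mki67, the proliferation antigen, was at 12.77, 12.12, 12.29 and 12.89 in the same order of arrays. Cdkn1a, the p21 inhibitor of the cell cycle, was at 16.16, 16.81, 16.81 and 16.30. Both had returned to within 0.14 of the vehicle.

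Chemokine genes were mostly at background (7 of 29 above it), with 6 positive differences and 1 negative, beside 5657 and 4770 of all clusters above background. Cxcl14 was at 5.34 in GHMT, 4.78 in diclofenac, 4.43 in the EP4 antagonist and 6.97 in diclofenac plus PGE2, at least 2.36-fold higher, and Cxcl12 at 13.97, 14.10, 14.04 and 13.03. Serpina3n, an acute phase protease inhibitor, was at 13.85, 13.88, 14.06 and 15.18 (2.51-fold higher), and at 15.49 in GHMT and 13.24 with the antagonist in set 2. Fibroblast identity genes had a median of -0.05, with Sfrp1 at 12.67, 12.40, 12.30 and 13.86 and Islr, a mesenchymal stromal marker, at 10.56, 9.87, 9.54 and 9.13.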
